A study of Mus musculus with 8 samples.

Results

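Potassium, calcium and sodium channels set the electrical behaviour of a cell, and the genes described here encode their subunits. Members were taken by symbol, as every gene of the expression table named *Kcn*, *Cacn* or *Scn* with the letters and digits of a channel subunit, except 1 inward rectifier gene that the rule leaves out. They numbered 81 of the 15880 genes of the table. Of these, 54 encoded subunits of potassium channels, 17 of calcium channels and 10 of sodium channels. They carried 78 symbols, because *Kcnb2*, *Kcnh8* and *Scn8a* each stood under 2 gene identifiers. The mouse annotation holds 133 identifiers that meet the rule, and the remaining 52, among them *Scn4a*, *Kcna7* and *Kcnmb1*, were not among the genes of the table and were not analysed here.

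The libraries came from the bones of newborn pups (postnatal day 1) on the C57BL/6 background that carried the *Nes-Gfp* transgene in the heterozygous state, so that GFP marked cells in which regulatory elements of nestin were active. Stromal cells negative for CD45, CD31 and Ter119 were sorted into 4 populations by GFP and by the receptor Pdgfrα, named GFP+ Pdgfrα+, GFP+ Pdgfrα-, GFP- Pdgfrα+ and GFP- Pdgfrα-. Bones were crushed and digested with collagenase, and each population gave 2 libraries, each from 15000 to 80000 cells of a pool of 3 pups, after the RNA was amplified. Comparison of the populations asks which kinds of stromal cell carried the channels of muscle, of vessel walls, of glia and of bone.

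Values are read counts scaled to the normalized library size (CPM), and both libraries of a population are given in each case (n = 2). The authors had added 0.5 to each count, so that a gene with 0 reads shows a small value instead of 0. The libraries held 3221217 to 5302762 reads on genes. A gene with at most 3 reads in each library of a population is called at the floor, a value of 0.825 to 1.04. A fold is the ratio of the population means where both are above the floor. Against a population with 0 reads it was computed from the floor of 3 reads and is a lower bound, and against a population at the floor with some reads it is the ratio of the summed reads, without the added 0.5, per normalized library size, with its exact 95% interval. Floors and intervals cover counting error alone, since the reads were amplified and carried no molecular identifiers. limma tested log2(value + 1) for each gene of the table, and 0.05 was the largest Benjamini-Hochberg adjusted p that counted as a call. A member was called highest in a population when its differences from the other 3 populations were all positive and all called. With 2 libraries against 2, an exact 2-sided permutation test cannot go below p = 0.333, so each call rests on the spread that limma shares across genes.

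Voltage-gated channels open when the membrane depolarizes, and inward rectifier and 2-pore potassium channels hold the membrane near its resting potential. Calcium-activated potassium channels link the membrane potential to the calcium inside the cell, while voltage-gated calcium channels let that calcium in. In muscle, calcium channels trigger contraction, in glia inward rectifiers take up potassium released by axons, and in bone cells L-type and T-type calcium channels take part in responses to load and hormones. Auxiliary subunits carry no pore and change the gating or the delivery of the pore subunits.

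The channel genes differed between the 4 populations, and GFP- Pdgfrα- carried the least of them. By the limma F test 63 of the 81 members (77.8%) were called, against 66% of all genes. The summed value of the 54 potassium channel genes was 379 and 335 in GFP+ Pdgfrα+, 474 and 493 in GFP+ Pdgfrα-, 285 and 302 in GFP- Pdgfrα+ and 224 and 210.1 in GFP- Pdgfrα-. For the 17 calcium channel genes the sum was 334 and 331 in GFP+ Pdgfrα+, 139 and 137 in GFP+ Pdgfrα-, 494 and 487 in GFP- Pdgfrα+ and 34.3 and 37.1 in GFP- Pdgfrα-. The 10 sodium channel genes summed to 86.7 and 82.5 in GFP+ Pdgfrα+, 121 and 104 in GFP+ Pdgfrα-, 45.6 and 43.1 in GFP- Pdgfrα+ and 5.74 and 3.30 in GFP- Pdgfrα-. Potassium and sodium channel RNA was thus highest in both libraries of GFP+ Pdgfrα-, calcium channel RNA in both libraries of GFP- Pdgfrα+, and all 3 classes were lowest in both libraries of GFP- Pdgfrα-. Under quantile normalization these orders held, although the potassium sums came close, at 261 and 243 in GFP- Pdgfrα- and 263 and 281 in GFP- Pdgfrα+. *Kcna1* alone had values of 140.0 and 135 in GFP+ Pdgfrα- and 20.9 and 8.48 in GFP+ Pdgfrα+. Without that gene the potassium sums given first would interleave between these populations. At the floor in GFP+ Pdgfrα+, GFP+ Pdgfrα-, GFP- Pdgfrα+ and GFP- Pdgfrα- were 15, 6, 12 and 30 of the potassium, 1, 2, 1 and 7 of the calcium and 1, 1, 3 and 8 of the sodium channel genes. In bulk RNA, fewer cells that carry a channel and less channel RNA in each cell cannot be told apart.

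Of the members, 24 (29.6%) had their highest mean in GFP+ Pdgfrα+, 27 (33.3%) in GFP+ Pdgfrα-, 24 (29.6%) in GFP- Pdgfrα+ and 6 (7.41%) in GFP- Pdgfrα-. The shares of all genes were 19.4%, 21%, 24% and 35.6%. The lowest mean lay in GFP- Pdgfrα- for 63 members (77.8%), against 45.3% of all genes, and 45 members (55.6%) were at the floor there, against 17.2% of all genes. Elsewhere too, members were at the floor more often than all genes. The shares were 21% against 7.11% in GFP+ Pdgfrα+, 11.1% against 7.13% in GFP+ Pdgfrα- and 19.8% against 7.87% in GFP- Pdgfrα+. Both libraries of GFP- Pdgfrα- were below the other 6 libraries for 42 members, a pattern that 31.6% of all genes showed. A stricter count, chosen after the values were seen, took members with lower values in GFP- Pdgfrα- than in each other population at the threshold, and gave 26 of 81 (32.1%) against 22% of all genes. They were 12 of the 54 potassium, 9 of the 17 calcium and 5 of the 10 sodium channel genes. The potassium share lay near the 22% of all genes, so that the higher share of the 81 came from the calcium and sodium channel genes. The median log2 difference of the 81 members was 1.34 between GFP+ Pdgfrα+ and GFP- Pdgfrα-, 1.21 between GFP+ Pdgfrα- and GFP- Pdgfrα- and 1.1 between GFP- Pdgfrα+ and GFP- Pdgfrα-, against 0.20, 0.15 and 0.17 over all genes. With genes at the floor set to the value of 3 reads, the 3 medians were 1.55, 1.28 and 1.35, against 0.11, 0.04 and 0.08 over all genes. Between the other populations the members' medians ran from -0.07 to 0.06, and with genes set to the floor from -0.14 to 0.05. Quantile normalization moved the median of all genes by -0.36, -0.30 and -0.33 in the 3 comparisons with GFP- Pdgfrα-, left the members' medians at 0.77, 0.74 and 0.67, and lowered the 26 members to 15. The share of all genes under that normalization is not given here, so the 15 cannot be set against the 22%. Red cell markers went the other way, since all 6 were called highest in GFP- Pdgfrα- although Ter119 was used to deplete erythroid cells. Their summed value was 26 and 29.0 in GFP+ Pdgfrα+, 90.8 and 55.8 in GFP+ Pdgfrα-, 36.1 and 29.7 in GFP- Pdgfrα+ and 6921 and 12297 in GFP- Pdgfrα-, with *Hbb-b1* the most abundant, and their part in the low channel values was not tested.

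**Figure D1:**
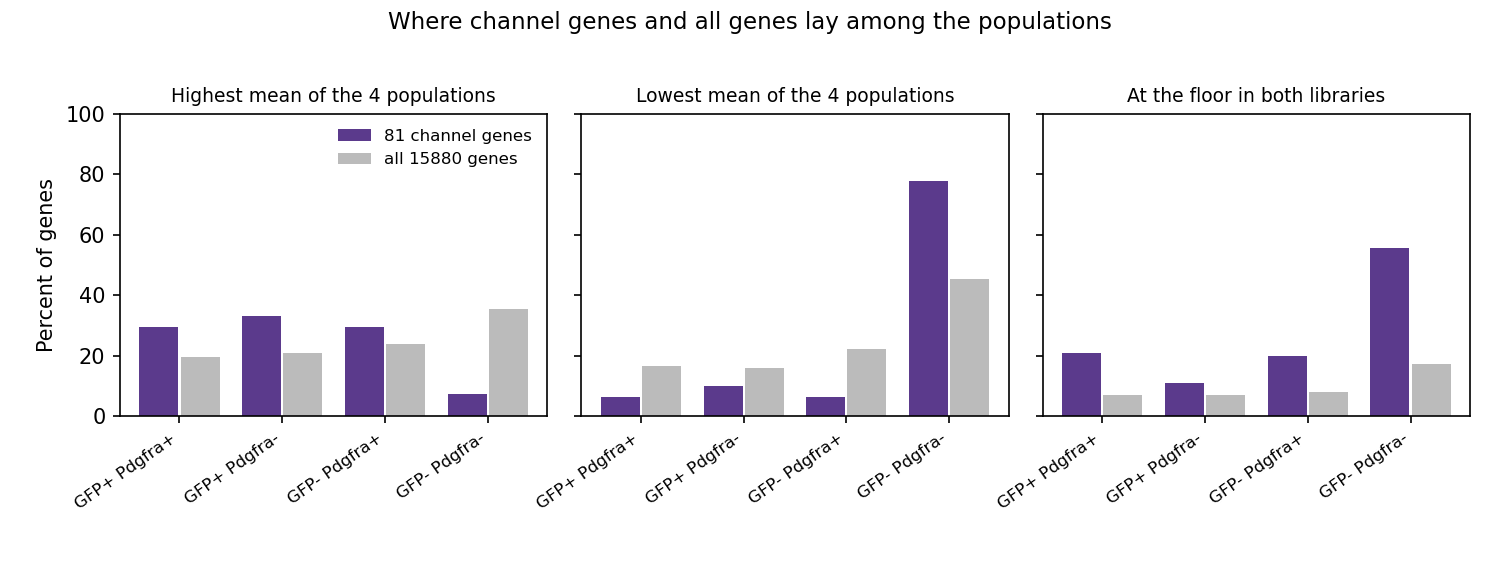
Bars give the percent of the 81 channel genes (purple) and of all 15880 genes (grey) that had their highest mean, their lowest mean, or at most 3 reads in both libraries, in each of the 4 populations. In GFP- Pdgfrα- the channel genes lie at 7.41%, 77.8% and 55.6%, and all genes at 35.6%, 45.3% and 17.2%.

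**Figure D2:**
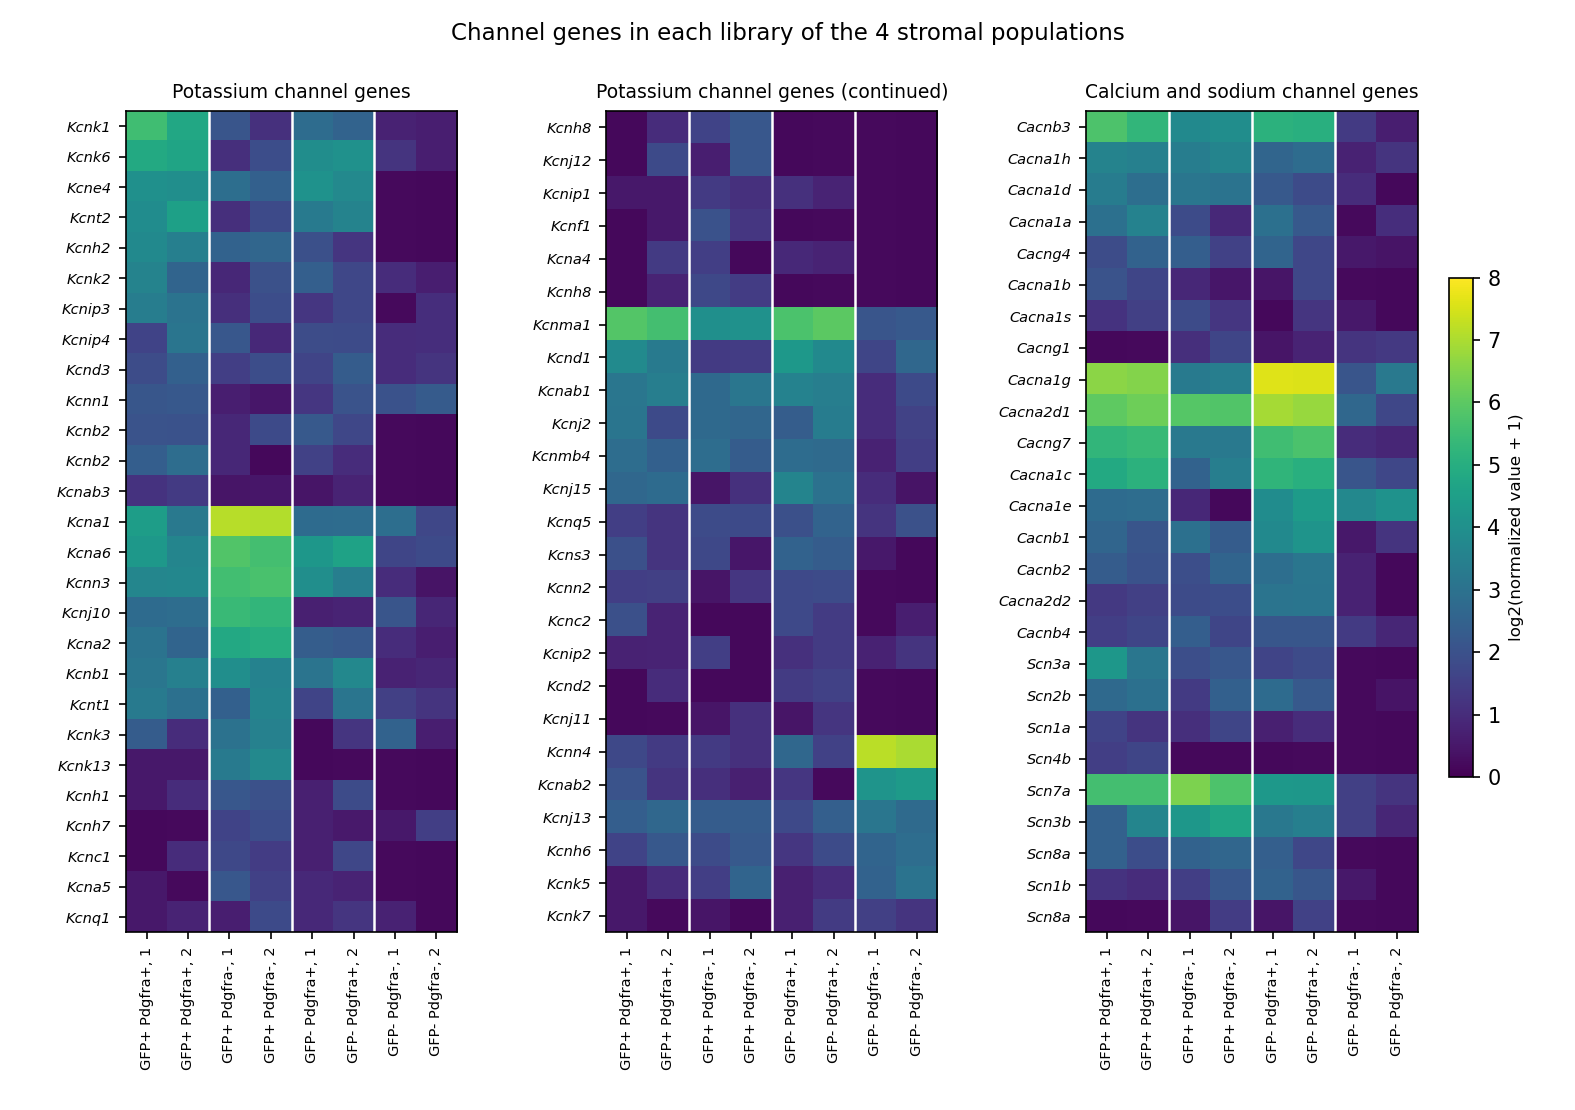
Each line is 1 channel gene and each column 1 library, and colour gives log2(normalized value + 1) from 0 to 8, with the genes of each class ordered by the population of their highest mean and 3 genes not shown. The brightest cells are *Kcna1* in GFP+ Pdgfrα-, *Cacna1g* in GFP- Pdgfrα+ and *Kcnn4* in GFP- Pdgfrα-.

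Of the potassium channel genes, 9 were called highest in GFP+ Pdgfrα-, 2 in GFP+ Pdgfrα+ and 2 in GFP- Pdgfrα-. GFP+ Pdgfrα- had 10 members called highest, 12.3% of the 81 against 4.65% of all genes. Of the 81, 5 had over 2 reads only in the 2 libraries of 1 population, so that they stood in the table through that population alone and a difference was part of their selection. Among the other 76 members 7 (9.21%) were called highest in GFP+ Pdgfrα-, against 4.25% of the other genes, 3 (3.95%) in GFP+ Pdgfrα+, against 1.24%, and the F test called 59 (77.6%), against 65.6%. The 7 include the gene model of *Kcnh8* on the plus strand, which outside GFP+ Pdgfrα- had over 2 reads in 1 library only. Its place in the table thus also rested on that population, and its call is no support for a difference. Called highest in GFP+ Pdgfrα- were 3 genes of the Shaker family, the voltage-gated potassium channels of axons and of the glia that ensheath them.

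*Kcna1* (chr6:126586481-126595819, minus strand, 2 exons; NCBIM37, as for all coordinates) had values of 20.9 and 8.48 in GFP+ Pdgfrα+, 140.0 and 135 in GFP+ Pdgfrα-, 5.92 and 6.09 in GFP- Pdgfrα+ and 6.46 and 2.24 in GFP- Pdgfrα-. Both libraries of GFP+ Pdgfrα- lay far above the other 6, those of GFP+ Pdgfrα+ came next, and GFP- Pdgfrα+ and GFP- Pdgfrα- overlapped. The mean in GFP+ Pdgfrα- was 9.37-fold that of GFP+ Pdgfrα+ (log2 difference 3.27 ± 0.43 (SE), limma adjusted p = 0.000181) and 22.9-fold that of GFP- Pdgfrα+ (log2 difference 4.30 ± 0.43 (SE), limma adjusted p = 1.64e-05). *Kcna2* (chr3:106904485-106909797, plus strand, 3 exons), which assembles with *Kcna1* in axonal channels, read 7.32 and 5.03 in GFP+ Pdgfrα+, 27.3 and 30.5 in GFP+ Pdgfrα-, 4.16 and 3.71 in GFP- Pdgfrα+ and 1.01 and 0.590 in GFP- Pdgfrα-. Again GFP+ Pdgfrα- stood above every other library, and GFP- Pdgfrα- below. Its level in GFP+ Pdgfrα- was 4.68-fold higher than in GFP+ Pdgfrα+, where the difference was smallest (log2 difference 2.08 ± 0.36 (SE), limma adjusted p = 0.00139). *Kcna6* (chr6:126658347-126690680, minus strand, 3 exons) gave 18.1 and 11.4 in GFP+ Pdgfrα+, 55.7 and 47.5 in GFP+ Pdgfrα-, 17.8 and 23.3 in GFP- Pdgfrα+ and 2.15 and 2.48 in GFP- Pdgfrα-. The libraries of GFP+ Pdgfrα+ and GFP- Pdgfrα+ interleaved, with GFP+ Pdgfrα- above and GFP- Pdgfrα- below them. GFP+ Pdgfrα- exceeded GFP- Pdgfrα+ 2.51-fold (log2 difference 1.30 ± 0.30 (SE), limma adjusted p = 0.00626). The call of *Kcna6* as highest was lost without library 1 of GFP+ Pdgfrα- (0.0772) or library 1 of GFP- Pdgfrα+ (0.0686), in a range of adjusted p of 0.000889 to 0.0772 over the alternatives. Exons of *Kcna6* overlap a gene model on the opposite strand, and reads of the 2 cannot be told apart because the counting is not stated to use strand. *Kcna1* and *Kcna6*, with *Kcna5* (3.52 and 1.93 in GFP+ Pdgfrα-), lie within 1 stretch of chromosome 6, and *Kcna2* lies on chromosome 3.

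*Kcnj10* (chr1:174271341-174304216, plus strand, 2 exons), the inward rectifier with which glia take up potassium, also had its highest values in GFP+ Pdgfrα-. It read 5.94 and 6.18 in GFP+ Pdgfrα+, 41.6 and 37.7 in GFP+ Pdgfrα-, 0.630 and 0.743 in GFP- Pdgfrα+ and 3.30 and 0.825 in GFP- Pdgfrα-. GFP+ Pdgfrα+ came next, with both libraries above those of the GFP- populations, and GFP- Pdgfrα+ was at the floor with 2 and 2 reads. GFP+ Pdgfrα- exceeded GFP+ Pdgfrα+ 6.55-fold (log2 difference 2.52 ± 0.43 (SE), limma adjusted p = 0.00121) and GFP- Pdgfrα+ 72.6-fold (95% counting interval 28.1 to 268). *Kcnk13* (chr12:101202709-101300892, plus strand, 3 exons), a 2-pore channel, was close to confined to GFP+ Pdgfrα-, at 8.86 and 12.5, while the other 3 populations were at the floor with 1 and 1 reads in GFP+ Pdgfrα+ and 0 reads in each of the 4 GFP- libraries. That was at least 11.1-fold over GFP- Pdgfrα+ (log2 difference 3.34 ± 0.36 (SE), limma adjusted p = 3.18e-05) and 37.2-fold (95% counting interval 9.99 to 313) over GFP+ Pdgfrα+ (log2 difference 3.02 ± 0.36 (SE), limma adjusted p = 8.76e-05). *Kcnk13* stood in the table through GFP+ Pdgfrα- alone, so its tests were made on a gene selected there. *Kcnn3* (chr3:89324086-89471683, plus strand, 8 exons), a small-conductance calcium-activated channel of muscle and neurons, read 11.7 and 11.9 in GFP+ Pdgfrα+, 46.7 and 51.3 in GFP+ Pdgfrα-, 14.5 and 9.65 in GFP- Pdgfrα+ and 1.01 and 0.354 in GFP- Pdgfrα-. GFP+ Pdgfrα+ and GFP- Pdgfrα+ overlapped, GFP+ Pdgfrα- stood above all libraries and GFP- Pdgfrα- at the floor. Its level in GFP+ Pdgfrα- was 4.14-fold that of GFP+ Pdgfrα+ (log2 difference 1.96 ± 0.33 (SE), limma adjusted p = 0.00116). The calls of *Kcna1*, *Kcna2*, *Kcnj10* and *Kcnn3* as highest in GFP+ Pdgfrα- held in every alternative tried. That of *Kcnk13* held too, but because of its selection it is no support for a difference.

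The other potassium channel genes called highest in GFP+ Pdgfrα- had few reads. *Kcnh8*, of the Elk family, was called under both of its identifiers. The longer model on the plus strand (chr17:52865084-53044561, plus strand, 10 exons) read 2.06 and 3.47 in GFP+ Pdgfrα-, with 8 and 13 reads, while GFP+ Pdgfrα+ had 0 and 3 reads and the 4 GFP- libraries 0. The ratio to GFP+ Pdgfrα+ was 6.21-fold (95% counting interval 1.85 to 32.5) (log2 difference 1.29 ± 0.39 (SE), limma adjusted p = 0.0312). Its call was lost with a pseudocount of 0.1 (0.0725), voom (0.0522) or edgeR (0.208), or without library 1 of GFP+ Pdgfrα+ (0.16) or library 1 or 2 of GFP+ Pdgfrα- (0.0511 and 0.166), and ran over 0.0164 to 0.208 in adjusted p. The call of the other identifier (chr17:53093281-53121602, minus strand, 5 exons) was lost with a pseudocount of 0.1 (0.0801), the replicate block (0.0568), voom (0.0722) or edgeR (0.233), or without library 1 of GFP+ Pdgfrα+ (0.177), library 1 or 2 of GFP+ Pdgfrα- (0.18 and 0.079), library 1 or 2 of GFP- Pdgfrα+ (0.0576 and 0.0578) or library 1 or 2 of GFP- Pdgfrα- (0.0669 and 0.0673). Over the alternatives, adjusted p in limma or edgeR was 0.0308 to 0.233. *Kcnf1*, a subunit that forms channels only together with other families, read 3.04 and 1.41 in GFP+ Pdgfrα- and was at the floor in the other 3 populations, a call lost with edgeR (0.118), or without library 1 of GFP+ Pdgfrα+ (0.0921), library 1 of GFP+ Pdgfrα- (0.156) or library 1 or 2 of GFP- Pdgfrα+ (0.0549 and 0.0529), over a range of 0.0209 to 0.156. *Kcnf1* and the model of *Kcnh8* on the minus strand stood in the table through GFP+ Pdgfrα- alone, and their calls are no support for a difference. The model on the plus strand had over 2 reads outside GFP+ Pdgfrα- in 1 library only, so that its call is no support either. The count of 10 members highest in GFP+ Pdgfrα- became 5 without library 1 of GFP+ Pdgfrα-.

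**Figure D3:**
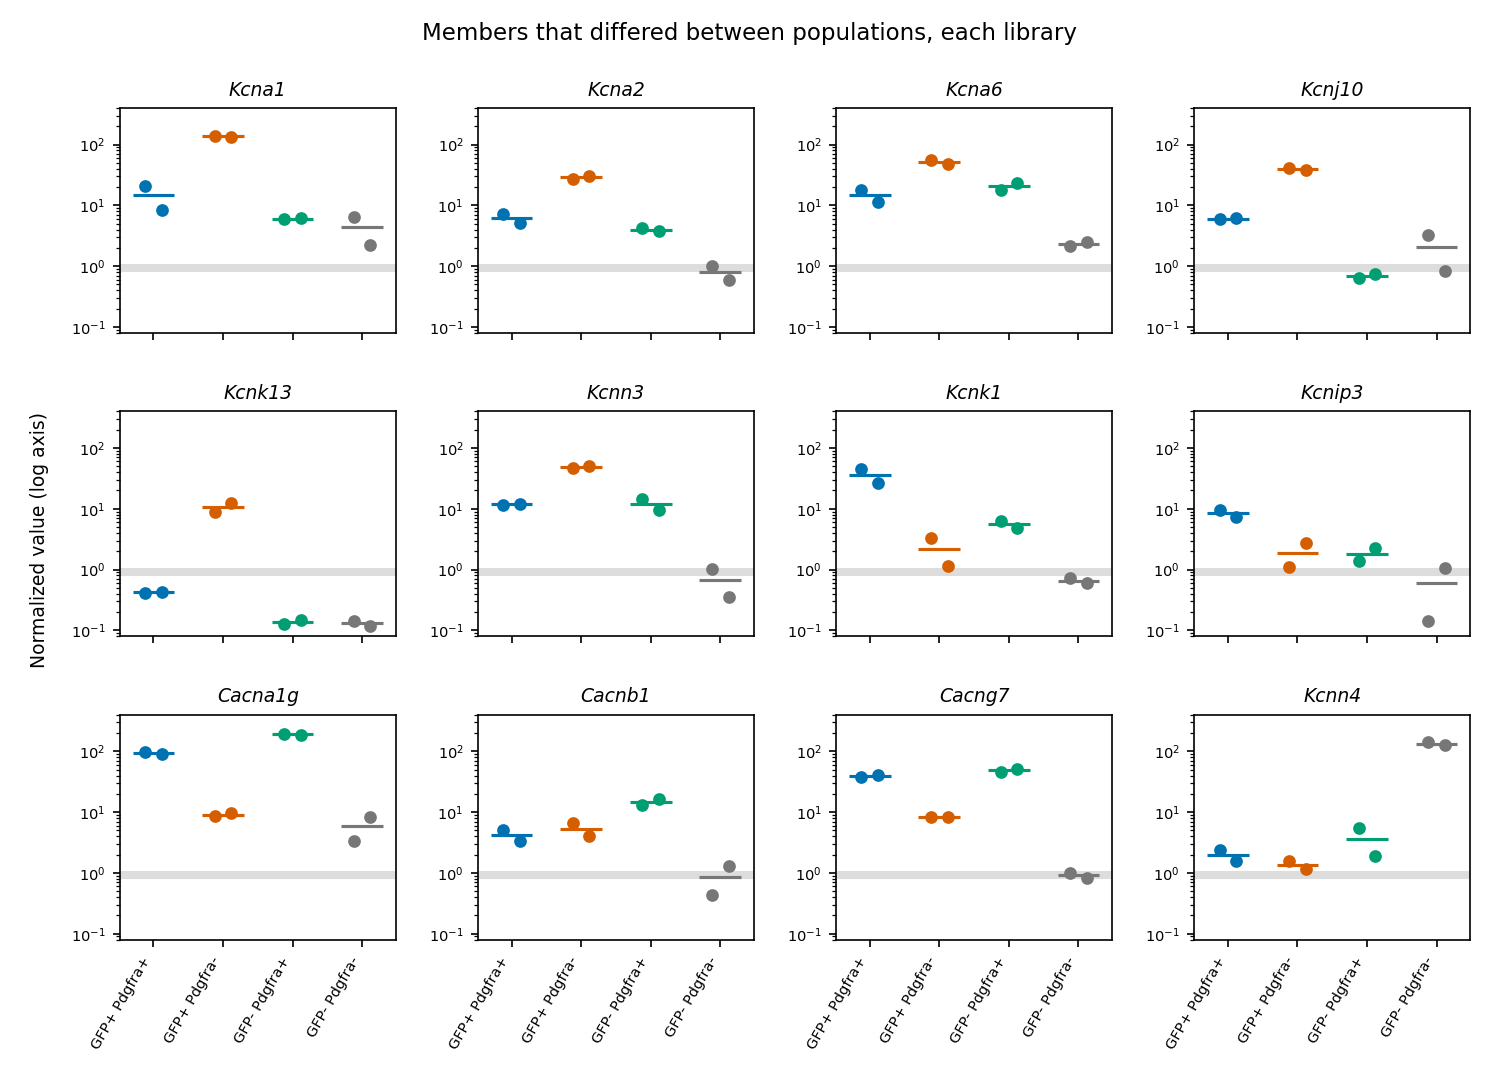
Points are the 8 libraries and lines the population means of 12 channel genes, as normalized values on a log axis, with the value of 3 reads as a grey band. *Kcna1*, *Kcna2*, *Kcna6*, *Kcnj10*, *Kcnk13* and *Kcnn3* lie highest in GFP+ Pdgfrα-, *Kcnk1* and *Kcnip3* in GFP+ Pdgfrα+, *Cacna1g*, *Cacnb1* and *Cacng7* in GFP- Pdgfrα+, and *Kcnn4* in GFP- Pdgfrα-.

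Markers of several cell types that carry these channels were highest in the same population. All 6 muscle precursor markers were called highest in GFP+ Pdgfrα-, against 4.65% of all genes, and their summed value was 113 and 119 in GFP+ Pdgfrα+, 1177 and 1195 in GFP+ Pdgfrα-, 231 and 212 in GFP- Pdgfrα+ and 15.8 and 8.02 in GFP- Pdgfrα-. *Chodl* was the most abundant of them, and *Pax7*, *Myf5*, *Cdh15*, *Myod1* and *Myog* were at the floor in GFP- Pdgfrα+. *Pax7* itself read 296 and 336 in GFP+ Pdgfrα- and 10.4 and 14.5 in GFP+ Pdgfrα+. Of 9 mural markers 7 were called highest in GFP+ Pdgfrα-, with sums of 751 and 661 in GFP+ Pdgfrα+, 2501 and 3256 in GFP+ Pdgfrα-, 535 and 549 in GFP- Pdgfrα+ and 97.5 and 157 in GFP- Pdgfrα-. *Rgs5* led that list, and none of its genes was at the floor in any population. Of 9 Schwann lineage markers 6 were called highest in GFP+ Pdgfrα-, while *Ngfr* was highest in GFP+ Pdgfrα+ and *Mbp* in GFP- Pdgfrα-. That list summed to 212 and 175 in GFP+ Pdgfrα+, 448 and 389.9 in GFP+ Pdgfrα-, 78.8 and 91.9 in GFP- Pdgfrα+ and 147 and 147 in GFP- Pdgfrα-, with *Ngfr* the most abundant gene and *Fabp7*, *Sox10*, *Foxd3* and *Cdh19* at the floor in GFP- Pdgfrα+. *Sox10* read 83.2 and 85.8 in GFP+ Pdgfrα- and 13.4 and 9.34 in GFP+ Pdgfrα+. Since muscle, mural and Schwann markers were highest together in GFP+ Pdgfrα-, which of these cells carried a channel cannot be told apart in these libraries, and the part of each list in the channel values was not tested.

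GFP+ Pdgfrα+ had 4 members called highest (4.94%), against 1.32% of all genes, and 2 of them were potassium channel genes. *Kcnk1* (chr8:128519002-128554583, plus strand, 3 exons), a 2-pore channel, read 46.0 and 26.6 in GFP+ Pdgfrα+, 3.28 and 1.16 in GFP+ Pdgfrα-, 6.18 and 4.90 in GFP- Pdgfrα+ and 0.718 and 0.590 in GFP- Pdgfrα-. Both libraries of GFP+ Pdgfrα+ lay above the other 6, and GFP- Pdgfrα- was at the floor. The mean of GFP+ Pdgfrα+ was 6.55-fold that of GFP- Pdgfrα+ (log2 difference 2.47 ± 0.44 (SE), limma adjusted p = 0.00667) and 16.4-fold that of GFP+ Pdgfrα- (log2 difference 3.57 ± 0.44 (SE), limma adjusted p = 0.000112). Its call as highest was lost without library 1 of GFP+ Pdgfrα+ (0.0718) or library 1 or 2 of GFP- Pdgfrα+ (0.0529 and 0.0841), with adjusted p from 0.00149 to 0.0841 over the alternatives. *Kcnip3* (chr2:127282234-127347830, minus strand, 11 exons), a calcium-binding protein that binds A-type potassium channels and also represses transcription, read 9.53 and 7.33 in GFP+ Pdgfrα+, 1.09 and 2.70 in GFP+ Pdgfrα-, 1.39 and 2.23 in GFP- Pdgfrα+ and 0.144 and 1.06 in GFP- Pdgfrα-. It was higher in GFP+ Pdgfrα+ in both libraries, 4.44-fold over GFP+ Pdgfrα- (log2 difference 1.75 ± 0.45 (SE), limma adjusted p = 0.0145) and 4.67-fold over GFP- Pdgfrα+ (log2 difference 1.75 ± 0.45 (SE), limma adjusted p = 0.0456). That call did not hold with a pseudocount of 0.1 (0.2), quantile normalization (0.0556), voom (0.0607) or edgeR (0.127), or without library 1 or 2 of GFP+ Pdgfrα+ (0.173 and 0.0977), library 1 or 2 of GFP+ Pdgfrα- (0.14 and 0.0637) or library 1 or 2 of GFP- Pdgfrα+ (0.257 and 0.135), and the adjusted p ran from 0.0354 to 0.257. The count of 4 members highest in GFP+ Pdgfrα+ became 0 without library 1 of GFP+ Pdgfrα+ or library 1 or 2 of GFP- Pdgfrα+, and 2 without library 2 of GFP+ Pdgfrα+ or library 1 or 2 of GFP+ Pdgfrα-. Osteoblast lineage markers were highest in the same population, in 8 of the 9 identifiers of 8 listed genes. They summed to 60770.3 and 44664 in GFP+ Pdgfrα+, 3863 and 3188 in GFP+ Pdgfrα-, 17305 and 15669 in GFP- Pdgfrα+ and 549.6 and 669.6 in GFP- Pdgfrα-, with *Col1a1* the most abundant, *Mepe* at the floor in GFP- Pdgfrα+ and *Bglap*, *Mepe* and 1 identifier of *Runx2* at the floor in GFP- Pdgfrα-. Their part in the channel values was not tested.

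GFP- Pdgfrα- had 2 members called highest (2.47%), against 19.2% of all genes. *Kcnn4* (chr7:25155282-25170228, plus strand, 9 exons) encodes the calcium-activated potassium channel of red cells and lymphocytes. It read 2.35 and 1.58 in GFP+ Pdgfrα+, 1.58 and 1.16 in GFP+ Pdgfrα-, 5.42 and 1.93 in GFP- Pdgfrα+ and 142 and 126 in GFP- Pdgfrα-. The 2 libraries of GFP- Pdgfrα- stood above all others, with 493 and 533 reads, while GFP+ Pdgfrα+ and GFP- Pdgfrα+ overlapped and GFP+ Pdgfrα- was lowest. Its mean in GFP- Pdgfrα- was 36.4-fold that of GFP- Pdgfrα+ (log2 difference 4.96 ± 0.41 (SE), limma adjusted p = 5.77e-07), 68.1-fold that of GFP+ Pdgfrα+ and 97.8-fold that of GFP+ Pdgfrα-. Per kilobase of exon *Kcnn4* had the highest level of the 81 members over all libraries, 13.9, and 52.9 within GFP- Pdgfrα-. *Kcnab2* (chr4:151764851-151851980, minus strand, 25 exons), a beta subunit of the Shaker channels, read 3.18 and 1.29 in GFP+ Pdgfrα+, 1.09 and 0.643 in GFP+ Pdgfrα-, 1.39 and 0.148 in GFP- Pdgfrα+ and 16.8 and 19.7 in GFP- Pdgfrα-. It was 8.16-fold higher in GFP- Pdgfrα- than in GFP+ Pdgfrα+ (log2 difference 2.63 ± 0.47 (SE), limma adjusted p = 0.000404). The exons of *Kcnab2* overlap another gene model on the same strand. Both calls held in all alternatives, while under quantile normalization the count rose from 2 to 6, with *Kcnh6*, *Kcnj13*, *Kcnk5* and *Kcnk7* added. The red cell markers given above and 3 of the 6 blood markers in the table were highest in the same libraries. Blood markers summed to 3.59 and 14.4 in GFP+ Pdgfrα+, 18 and 16.0 in GFP+ Pdgfrα-, 19.2 and 9.50 in GFP- Pdgfrα+ and 54.9 and 48.8 in GFP- Pdgfrα-, with *Lyz2* the most abundant, and *Ptprc*, *Elane*, *Csf1r* and *Cd79a* were at the floor in GFP- Pdgfrα+. *Ptprc*, which encodes CD45, read 11.3 and 6.72 in GFP- Pdgfrα-. The part of these cells in the *Kcnn4* value was not tested.

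Further potassium channel genes separated GFP+ Pdgfrα+ from GFP+ Pdgfrα- without being called highest in either. *Kcnk6* (chr7:30006947-30017541, minus strand, 4 exons), a 2-pore channel of the *Kcnk1* group, read 28.0 and 24.6 in GFP+ Pdgfrα+, 1.09 and 2.70 in GFP+ Pdgfrα-, 14.2 and 15.6 in GFP- Pdgfrα+ and 1.29 and 0.590 in GFP- Pdgfrα-. GFP+ Pdgfrα+ stood above GFP- Pdgfrα+, and the Pdgfrα- populations overlapped near the floor. The ratio of GFP+ Pdgfrα+ to GFP+ Pdgfrα- was 13.9-fold (log2 difference 3.29 ± 0.40 (SE), limma adjusted p = 8.99e-05). *Kcnt2* (chr1:142142793-142508640, plus strand, 30 exons), a sodium-activated channel, read 13.9 and 22.3 in GFP+ Pdgfrα+, 1.09 and 2.44 in GFP+ Pdgfrα-, 8.70 and 10.8 in GFP- Pdgfrα+ and 0.144 and 0.118 in GFP- Pdgfrα-. It was higher in GFP+ Pdgfrα+ than in GFP+ Pdgfrα- 10.2-fold (log2 difference 2.80 ± 0.41 (SE), limma adjusted p = 0.000446), and GFP- Pdgfrα- had 0 reads. *Kcnd1* (chrX:7399415-7415406, plus strand, 6 exons), an A-type channel to which proteins of the *Kcnip3* family bind, read 13.1 and 8.77 in GFP+ Pdgfrα+, 1.58 and 1.67 in GFP+ Pdgfrα-, 18.3 and 12.9 in GFP- Pdgfrα+ and 2.15 and 5.31 in GFP- Pdgfrα-. Its Pdgfrα+ populations overlapped and both exceeded GFP+ Pdgfrα-, 6.73-fold in the case of GFP+ Pdgfrα+ (log2 difference 2.16 ± 0.42 (SE), limma adjusted p = 0.00279). *Kcnma1* (chr14:24117983-24622526, minus strand, 33 exons), the pore of the large-conductance calcium-activated channel of smooth muscle, read 57.0 and 48.2 in GFP+ Pdgfrα+, 14.9 and 15.6 in GFP+ Pdgfrα-, 52.3 and 62.2 in GFP- Pdgfrα+ and 3.30 and 3.66 in GFP- Pdgfrα-. The 2 Pdgfrα+ populations overlapped, GFP+ Pdgfrα- lay between, and GFP- Pdgfrα- was lowest, 15.1-fold below GFP+ Pdgfrα+ (log2 difference 3.58 ± 0.23 (SE), limma adjusted p = 6.33e-08).

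The voltage-gated potassium channels, 25 members, summed to 120.3 and 111 in GFP+ Pdgfrα+, 300.2 and 299 in GFP+ Pdgfrα-, 112 and 118 in GFP- Pdgfrα+ and 23.7 and 27 in GFP- Pdgfrα-. In that family 6 were called highest in GFP+ Pdgfrα- and 6 lowest in GFP- Pdgfrα-, against 4.65% and 22% of all genes. Those highest in GFP+ Pdgfrα- were *Kcna1*, *Kcna2*, *Kcna6*, *Kcnf1* and both models of *Kcnh8*. The place of *Kcnf1* and of both *Kcnh8* models in the table rested on that population, so that their calls are no support for a difference. With edgeR the family members called highest there were *Kcna1*, *Kcna2* and *Kcna6*. *Kcnh2*, which carries the repolarizing current of the heart, read 12.8 and 9.92 in GFP+ Pdgfrα+, 4.73 and 5.27 in GFP+ Pdgfrα-, 2.90 and 1.34 in GFP- Pdgfrα+ and 0.144 and 0.118 in GFP- Pdgfrα-, and GFP- Pdgfrα- had 0 reads. The 7 members of the 2-pore family summed to 90.2 and 58.8 in GFP+ Pdgfrα+, 23.4 and 34.9 in GFP+ Pdgfrα-, 26.3 and 26.9 in GFP- Pdgfrα+ and 14.5 and 11 in GFP- Pdgfrα-. *Kcnk3*, an acid-sensitive member of that family, read 4.0 and 1.01 in GFP+ Pdgfrα+, 7.16 and 10.4 in GFP+ Pdgfrα-, 0.126 and 1.34 in GFP- Pdgfrα+ and 4.74 and 0.590 in GFP- Pdgfrα-, so that GFP+ Pdgfrα- stood above 3 populations that overlapped. *Kcnk3* was not called highest there in the reported fit. The F test called it (limma adjusted p = 0.0216), but not with a pseudocount of 0.1 (limma adjusted p = 0.0526). Inward rectifiers, 6 members, summed to 23.5 and 22.4 in GFP+ Pdgfrα+, 52.7 and 52.7 in GFP+ Pdgfrα-, 18.9 and 22.9 in GFP- Pdgfrα+ and 13.5 and 9.20 in GFP- Pdgfrα-, and 2 of them were called by the F test, *Kcnj10* and *Kcnj15*, against 66% of all genes. *Kcnj10* made up most of the sum in GFP+ Pdgfrα-, and without it that population would lie below both Pdgfrα+ populations. *Kcnj15* read 5.39 and 5.89 in GFP+ Pdgfrα+, 0.364 and 1.16 in GFP+ Pdgfrα-, 11.2 and 6.98 in GFP- Pdgfrα+ and 1.01 and 0.354 in GFP- Pdgfrα-, higher in both Pdgfrα+ populations than in the Pdgfrα- libraries. The 7 calcium-activated and sodium-activated channels, all called by that test, summed to 99.0 and 96.2 in GFP+ Pdgfrα+, 69.8 and 83.5 in GFP+ Pdgfrα-, 86.9 and 97.9 in GFP- Pdgfrα+ and 151 and 135 in GFP- Pdgfrα-, and *Kcnn4* made up most of the sum in GFP- Pdgfrα-. Among 9 auxiliary subunits, *Kcne4*, a single-span partner of several pores, read 15.3 and 14.5 in GFP+ Pdgfrα+, 6.43 and 4.50 in GFP+ Pdgfrα-, 16.0 and 12.6 in GFP- Pdgfrα+ and 0.144 and 0.118 in GFP- Pdgfrα-, and *Kcnmb4*, which slows the *Kcnma1* channel, read 6.21 and 4.46 in GFP+ Pdgfrα+, 6.19 and 3.99 in GFP+ Pdgfrα-, 6.18 and 5.79 in GFP- Pdgfrα+ and 0.718 and 1.77 in GFP- Pdgfrα-.

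The potassium channels share a signature in the selectivity filter, the stretch of the pore that lets potassium pass and holds sodium back. Its codons, in frame, stand for serine or threonine, any residue, glycine, tyrosine or phenylalanine, and glycine. They were found in 43 of the 45 identifiers of potassium pore subunits and in 0 of 9 potassium auxiliary, 0 of 17 calcium and 0 of 10 sodium channel genes. The 2 exceptions were 1 identifier each of *Kcnb2* and *Kcnh8*. Each of these genes stood under 2 identifiers, on the same strand in *Kcnb2* and on opposite strands in *Kcnh8*. Of all 14110 genes of the table with a coding sequence, 408 (2.89%) hold these codons somewhere in frame. *Kcnk2*, *Kcnk3*, *Kcnk5* and *Kcnk13* hold them at 2 places and the other genes at 1. The sequences of 6 members show the bases of the signature, each 33 bases of NCBIM37 from 5′ to 3′ on the coding strand with the 15 bases of the signature in capitals. They lie at chr6:126592237-126592269 (minus), chr3:106908133-106908165 (plus), chr6:126688656-126688688 (minus), chr14:24347626-24347658 (minus), chr1:142321846-142321878 (plus) and chr5:23831364-23831396 (minus), in the order printed.
Kcna1: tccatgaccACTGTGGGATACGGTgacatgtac
Kcna2: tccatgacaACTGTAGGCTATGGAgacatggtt
Kcna6: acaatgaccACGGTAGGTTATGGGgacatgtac
Kcnma1: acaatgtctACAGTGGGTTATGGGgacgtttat
Kcnt2: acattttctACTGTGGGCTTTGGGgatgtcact
Kcnh2: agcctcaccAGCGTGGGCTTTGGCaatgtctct
*Kcna1* and *Kcna2*, both highest in GFP+ Pdgfrα-, are identical at 11 of 15 bases of the signature, and *Kcna2* and *Kcna6* at 12 of 15. For *Kcna1* and *Kcna6* the number is 10, and for *Kcna1* and *Kcnb2*, which was not called highest in a population, it is 14.

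Calcium channel RNA was higher in the Pdgfrα+ populations. Of the 17 members 15 were called by the F test, 6 were higher in GFP+ Pdgfrα+ than in GFP+ Pdgfrα- and 1 was lower, and 9 were called lowest in GFP- Pdgfrα-. The shares of all genes were 66%, 13.1%, 11.1% and 22%. The 8 pore subunits summed to 162 and 163 in GFP+ Pdgfrα+, 37.6 and 40.6 in GFP+ Pdgfrα-, 259 and 256 in GFP- Pdgfrα+ and 21.3 and 29.2 in GFP- Pdgfrα-, and the 9 auxiliary subunits to 171 and 168 in GFP+ Pdgfrα+, 101 and 96.3 in GFP+ Pdgfrα-, 235 and 231 in GFP- Pdgfrα+ and 13.1 and 7.90 in GFP- Pdgfrα-.

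*Cacna1g* (chr11:94269705-94335414, minus strand, 38 exons), a T-type channel that opens at small depolarizations, was the calcium pore gene with the most reads. It read 96.8 and 90.7 in GFP+ Pdgfrα+, 8.62 and 9.65 in GFP+ Pdgfrα-, 193 and 188 in GFP- Pdgfrα+ and 3.30 and 8.37 in GFP- Pdgfrα-. Both libraries of GFP- Pdgfrα+ stood highest and both of GFP+ Pdgfrα+ next, and the Pdgfrα- populations lay lower, with GFP+ Pdgfrα- just above GFP- Pdgfrα-. The ratio of GFP+ Pdgfrα+ to GFP+ Pdgfrα- was 10.3-fold (log2 difference 3.23 ± 0.30 (SE), limma adjusted p = 1.17e-05) and that of GFP- Pdgfrα+ to GFP- Pdgfrα- 32.6-fold (log2 difference 4.92 ± 0.30 (SE), limma adjusted p = 3.51e-08). Between GFP- Pdgfrα+ and GFP+ Pdgfrα+ the means differed 2.03-fold, a difference that was not called (log2 difference 1.02 ± 0.30 (SE), limma adjusted p = 0.0753), although it was called with quantile normalization (0.044), voom (0.000772) or edgeR (0.00836), or without library 1 or 2 of GFP- Pdgfrα- (0.00353 and 0.00433). Over the alternatives, adjusted p in limma or edgeR was 0.000772 to 0.315. Per kilobase of exon its level was 19.0 in GFP- Pdgfrα+ and 9.34 in GFP+ Pdgfrα+. *Cacna1c* (chr6:118542314-119146249, minus strand, 53 exons), the L-type pore of heart and smooth muscle that is also present in osteoblasts, read 28.3 and 34.6 in GFP+ Pdgfrα+, 4.73 and 9.65 in GFP+ Pdgfrα-, 36.9 and 32.2 in GFP- Pdgfrα+ and 3.30 and 2.24 in GFP- Pdgfrα-. It was 4.38-fold higher in GFP+ Pdgfrα+ than in GFP+ Pdgfrα- (log2 difference 2.05 ± 0.34 (SE), limma adjusted p = 0.001), with GFP+ Pdgfrα+ and GFP- Pdgfrα+ overlapping. *Cacna1e* (chr1:156239649-156573049, minus strand, 47 exons), the R-type pore, differed from the others in that GFP- Pdgfrα- was high. It read 5.94 and 6.18 in GFP+ Pdgfrα+, 0.850 and 0.129 in GFP+ Pdgfrα-, 13.7 and 19.8 in GFP- Pdgfrα+ and 12.2 and 15.9 in GFP- Pdgfrα-, so that GFP+ Pdgfrα- alone was low, at the floor, and GFP- Pdgfrα+ and GFP- Pdgfrα- overlapped. GFP+ Pdgfrα+ exceeded GFP+ Pdgfrα- 15.8-fold (95% counting interval 5.04 to 79.6) (log2 difference 2.29 ± 0.39 (SE), limma adjusted p = 0.00109). *Cacna1s*, the voltage sensor of skeletal muscle, reached 2.55 and 1.41 in GFP+ Pdgfrα- and 1.24 and 1.87 in GFP+ Pdgfrα+, was not called by the F test (limma adjusted p = 0.0811) except without library 2 of GFP- Pdgfrα+ (0.0318) (range 0.0318 to 0.343), and had 10 and 5 reads where it was highest.

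Among the auxiliary calcium subunits, *Cacng7* (chr7:3333055-3367810, plus strand, 6 exons), of the family that also binds glutamate receptors, read 37.7 and 40.7 in GFP+ Pdgfrα+, 8.38 and 8.36 in GFP+ Pdgfrα-, 46.0 and 52.1 in GFP- Pdgfrα+ and 1.01 and 0.825 in GFP- Pdgfrα-. Its Pdgfrα+ libraries were all above those of GFP+ Pdgfrα-, and GFP- Pdgfrα- was at the floor. The mean in GFP+ Pdgfrα+ was 4.68-fold that of GFP+ Pdgfrα- (log2 difference 2.1 ± 0.27 (SE), limma adjusted p = 0.00015). *Cacnb3* (chr15:98462651-98474961, plus strand, 14 exons), a beta subunit that brings the pore to the membrane, read 54.0 and 37.5 in GFP+ Pdgfrα+, 13.0 and 14.0 in GFP+ Pdgfrα-, 33.9 and 32.2 in GFP- Pdgfrα+ and 1.58 and 0.590 in GFP- Pdgfrα-, with GFP+ Pdgfrα+ 3.39-fold above GFP+ Pdgfrα- (log2 difference 1.67 ± 0.31 (SE), limma adjusted p = 0.00225). *Cacna2d1* (chr5:15440509-15880329, plus strand, 42 exons), an extracellular subunit, read 64.2 and 74.6 in GFP+ Pdgfrα+, 58.2 and 56.0 in GFP+ Pdgfrα-, 119 and 108 in GFP- Pdgfrα+ and 5.31 and 2.24 in GFP- Pdgfrα-. It did not separate GFP+ Pdgfrα+ from GFP+ Pdgfrα- (log2 difference 0.27 ± 0.27 (SE), limma adjusted p = 0.512), while GFP- Pdgfrα- was 18.4-fold below GFP+ Pdgfrα+ (log2 difference 3.96 ± 0.27 (SE), limma adjusted p = 1.06e-07). Per kilobase of exon and over all 8 libraries, the members with the highest levels after *Kcnn4* were *Cacng7* at 11, *Cacnb3* at 7.48, *Cacna1g* at 7.45, *Cacna2d1* at 7.26 and *Kcnma1* at 6.76. Within populations the order differed. In GFP+ Pdgfrα- *Kcna1* was at 15.3 and *Cacng7* at 3.78, and in GFP+ Pdgfrα+ *Kcnk1* was at 15.8 and *Cacnb3* at 14.7.

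GFP- Pdgfrα+ had 2 members called highest (2.47%), against 1.45% of all genes, and both were auxiliary calcium subunits. *Cacnb1* (chr11:97862822-97884348, minus strand, 18 exons), the beta subunit of skeletal muscle, read 5.11 and 3.31 in GFP+ Pdgfrα+, 6.68 and 3.99 in GFP+ Pdgfrα-, 13.0 and 16.8 in GFP- Pdgfrα+ and 0.431 and 1.30 in GFP- Pdgfrα-. The GFP+ populations overlapped below GFP- Pdgfrα+, and GFP- Pdgfrα- lay lowest. GFP- Pdgfrα+ exceeded GFP+ Pdgfrα+ 3.54-fold (log2 difference 1.62 ± 0.42 (SE), limma adjusted p = 0.0471) and GFP+ Pdgfrα- 2.79-fold (log2 difference 1.35 ± 0.42 (SE), limma adjusted p = 0.0319). *Cacna2d2* (chr9:107301943-107431677, plus strand, 40 exons) read 1.52 and 1.87 in GFP+ Pdgfrα+, 2.55 and 2.70 in GFP+ Pdgfrα-, 7.44 and 7.57 in GFP- Pdgfrα+ and 0.718 and 0.118 in GFP- Pdgfrα-, with GFP- Pdgfrα+ above every other library. It was 4.43-fold higher in GFP- Pdgfrα+ than in GFP+ Pdgfrα+ (log2 difference 1.66 ± 0.39 (SE), limma adjusted p = 0.0277) and 2.86-fold higher than in GFP+ Pdgfrα- (log2 difference 1.23 ± 0.39 (SE), limma adjusted p = 0.0332). For *Cacnb1* the call was lost with a pseudocount of 0.1 (0.144), the replicate block (0.0528) or edgeR (0.0557), or without library 1 or 2 of GFP+ Pdgfrα+ (0.0895 and 0.191), library 1 or 2 of GFP+ Pdgfrα- (0.0754 and 0.203) or library 1 or 2 of GFP- Pdgfrα+ (0.153 and 0.261). Over the alternatives, adjusted p in limma or edgeR was 0.0347 to 0.261. For *Cacna2d2* it was lost with a pseudocount of 0.1 (0.166), voom (0.0525) or edgeR (0.117), or without library 1 or 2 of GFP+ Pdgfrα+ (0.114 and 0.0761), library 1 or 2 of GFP+ Pdgfrα- (0.128 and 0.104) or library 1 or 2 of GFP- Pdgfrα+ (0.134 and 0.139). Over the alternatives, adjusted p in limma or edgeR was 0.0321 to 0.166. The count of 2 thus became 0 without any 1 library of GFP+ Pdgfrα+, GFP+ Pdgfrα- or GFP- Pdgfrα+, and 4 without library 1 or 2 of GFP- Pdgfrα-, and with edgeR the 1 member called highest in GFP- Pdgfrα+ was *Cacna1g*. Both genes have exons that overlap a gene model on the opposite strand. All 5 tendon markers were highest in the same population and summed to 514 and 552 in GFP+ Pdgfrα+, 17.4 and 15.8 in GFP+ Pdgfrα-, 2835 and 2738 in GFP- Pdgfrα+ and 75.1 and 83.4 in GFP- Pdgfrα-, with *Thbs4* the most abundant and *Scx* at the floor in GFP+ Pdgfrα+ and GFP- Pdgfrα-. Of 7 cartilage markers 3 were highest in GFP- Pdgfrα+ and *Matn1* in GFP- Pdgfrα-, with sums of 311 and 408 in GFP+ Pdgfrα+, 71.3 and 100.2 in GFP+ Pdgfrα-, 678 and 2128 in GFP- Pdgfrα+ and 554 and 975 in GFP- Pdgfrα-, in which *Col2a1* was the most abundant and differed most between the libraries of GFP- Pdgfrα+, at 273 and 1498. The part of these cells in the calcium channel values was not tested.

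The summed value of the 10 sodium channel genes was higher in the GFP+ populations. For the 4 auxiliary genes alone, the sums of GFP+ Pdgfrα+ and GFP- Pdgfrα+ overlapped. Of the 10 members 3 were higher in GFP+ Pdgfrα+ than in GFP- Pdgfrα+, against 3.22% of all genes. *Scn4b*, among the 3, stood in the table through GFP+ Pdgfrα+ alone and is no support for a difference. Of the same 10 members 9 were called by the F test and 5 lowest in GFP- Pdgfrα-, against 66% and 22% of all genes. Their 6 pore genes summed to 73.5 and 61.2 in GFP+ Pdgfrα+, 99.8 and 71.0 in GFP+ Pdgfrα-, 26.7 and 25.8 in GFP- Pdgfrα+ and 3.16 and 1.89 in GFP- Pdgfrα-, and the 4 auxiliary genes to 13.3 and 21.3 in GFP+ Pdgfrα+, 21.4 and 32.7 in GFP+ Pdgfrα-, 18.9 and 17.2 in GFP- Pdgfrα+ and 2.59 and 1.41 in GFP- Pdgfrα-. *Scn7a* (chr2:66511482-66622971, minus strand, 25 exons), a sodium-sensing member found in glia, made up most of the class in the GFP+ libraries. It read 47.6 and 48.2 in GFP+ Pdgfrα+, 83.9 and 53.4 in GFP+ Pdgfrα-, 18.3 and 18 in GFP- Pdgfrα+ and 1.87 and 1.30 in GFP- Pdgfrα-. Both libraries of GFP+ Pdgfrα- lay above those of GFP+ Pdgfrα+, and the GFP+ libraries lay above GFP- Pdgfrα+, which lay above GFP- Pdgfrα-. GFP+ Pdgfrα+ exceeded GFP- Pdgfrα+ 2.64-fold (log2 difference 1.35 ± 0.27 (SE), limma adjusted p = 0.0121). That call was lost without library 1 or 2 of GFP+ Pdgfrα+ (0.0783 and 0.0748) or library 1 or 2 of GFP- Pdgfrα+ (0.0945 and 0.103). Over the alternatives, adjusted p in limma or edgeR was 0.00375 to 0.103. Per kilobase of exon its level was 9.35 in GFP+ Pdgfrα-, 6.53 in GFP+ Pdgfrα+ and 2.47 in GFP- Pdgfrα+.

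*Scn3a* (chr2:65295175-65405684, minus strand, 30 exons), a neuronal pore of early development, was called highest in GFP+ Pdgfrα+ and read 17.8 and 7.91 in GFP+ Pdgfrα+, 2.79 and 3.47 in GFP+ Pdgfrα-, 2.14 and 2.52 in GFP- Pdgfrα+ and 0.144 and 0.118 in GFP- Pdgfrα-. Its 2 libraries in GFP+ Pdgfrα+ were above all others yet far apart, and GFP- Pdgfrα- had 0 reads. GFP+ Pdgfrα+ exceeded GFP+ Pdgfrα- 4.11-fold (log2 difference 1.65 ± 0.43 (SE), limma adjusted p = 0.0153). The call was lost with a pseudocount of 0.1 (0.0805), or without library 1 of GFP+ Pdgfrα+ (0.122), library 1 or 2 of GFP+ Pdgfrα- (0.103 and 0.0614) or library 1 or 2 of GFP- Pdgfrα+ (0.144 and 0.112). Over the alternatives, adjusted p in limma or edgeR was 0.0142 to 0.144. *Scn4b* (chr9:44946520-44962235, plus strand, 5 exons), an auxiliary subunit, was also called highest in GFP+ Pdgfrα+, from 6 and 7 reads against 0 reads in each of the other 6 libraries. It stood in the table through GFP+ Pdgfrα+ alone, and its call is no support for a difference. *Scn4b* read 1.80 and 2.16 in GFP+ Pdgfrα+, at least 2.06-fold over GFP- Pdgfrα+ (log2 difference 1.39 ± 0.33 (SE), limma adjusted p = 0.0302), and the call was lost with edgeR (0.14), or without library 1 or 2 of GFP+ Pdgfrα+ (0.0636 and 0.0845) or library 1 or 2 of GFP- Pdgfrα+ (0.138 and 0.131), over a range of 0.0292 to 0.14. *Scn3b*, an auxiliary subunit of neurons and heart, read 4.56 and 11.4 in GFP+ Pdgfrα+, 17.8 and 24.6 in GFP+ Pdgfrα-, 8.19 and 9.95 in GFP- Pdgfrα+ and 1.87 and 0.825 in GFP- Pdgfrα-, and GFP+ Pdgfrα- exceeded GFP+ Pdgfrα+ 2.67-fold (log2 difference 1.41 ± 0.44 (SE), limma adjusted p = 0.0346). The difference in *Scn3b* was not called with a pseudocount of 0.1 (0.0743), or without library 1 of GFP+ Pdgfrα+ (0.23), library 1 or 2 of GFP+ Pdgfrα- (0.0987 and 0.211) or library 1 or 2 of GFP- Pdgfrα+ (0.0568 and 0.0576), over a range of 0.0148 to 0.23.

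The comparison of GFP+ Pdgfrα+ with GFP- Pdgfrα+ asks how GFP divided the Pdgfrα+ cells. Higher in GFP+ Pdgfrα+ were 8 members (9.88%), against 3.22% of all genes, and lower were 2 (2.47%), against 2.13%. Among the higher genes were *Kcnk1*, *Kcnj10*, *Kcnh2*, *Scn3a*, *Kcnip3*, *Scn4b* and *Scn7a*, and the lower ones were *Cacna2d2* and *Cacnb1*. *Scn4b* stood in the table through GFP+ Pdgfrα+ alone, so that it is no support here. *Kcnj10*, at the floor in GFP- Pdgfrα+, differed by a ratio of 10.8-fold (95% counting interval 3.94 to 41.6) (log2 difference 2.07 ± 0.43 (SE), limma adjusted p = 0.0159). *Kcnh2* (chr5:23825407-23857422, minus strand, 16 exons) was 5.37-fold higher (log2 difference 2.03 ± 0.40 (SE), limma adjusted p = 0.0121). *Kcnj10* was no longer called without library 1 or 2 of GFP+ Pdgfrα+ (0.0814 and 0.0807) or library 1 or 2 of GFP- Pdgfrα+ (0.117 and 0.102) (0.00475 to 0.117 over the alternatives). *Kcnh2* was not called with a pseudocount of 0.1 (0.0572), or without library 1 of GFP+ Pdgfrα+ (0.0768) or library 2 of GFP- Pdgfrα+ (0.126) (0.00908 to 0.126). *Scn7a* was not called without library 1 or 2 of GFP+ Pdgfrα+ (0.0783 and 0.0748) or library 1 or 2 of GFP- Pdgfrα+ (0.0945 and 0.103) (0.00375 to 0.103). Nor was *Scn4b* called with edgeR (0.14), or without library 1 or 2 of GFP+ Pdgfrα+ (0.0636 and 0.0845) or library 1 or 2 of GFP- Pdgfrα+ (0.138 and 0.131) (0.0292 to 0.14). *Kcnk1* was not called without library 1 of GFP+ Pdgfrα+ (0.0718) or library 1 or 2 of GFP- Pdgfrα+ (0.0529 and 0.0841) (0.00149 to 0.0841). For *Scn3a* the call was lost with a pseudocount of 0.1 (0.0805), or without library 1 of GFP+ Pdgfrα+ (0.122) or library 1 or 2 of GFP- Pdgfrα+ (0.144 and 0.112) (0.0142 to 0.144). For *Kcnip3* it was lost with a pseudocount of 0.1 (0.2), quantile normalization (0.0556), voom (0.0607) or edgeR (0.127), or without library 1 or 2 of GFP+ Pdgfrα+ (0.173 and 0.0977), library 1 or 2 of GFP+ Pdgfrα- (0.0644 and 0.0637) or library 1 or 2 of GFP- Pdgfrα+ (0.257 and 0.135) (0.0354 to 0.257). *Cacna2d2* was not called with a pseudocount of 0.1 (0.158), voom (0.0525) or edgeR (0.11), or without library 1 or 2 of GFP+ Pdgfrα+ (0.114 and 0.0761), library 1 or 2 of GFP+ Pdgfrα- (0.0536 and 0.0531) or library 1 or 2 of GFP- Pdgfrα+ (0.134 and 0.139) (0.0252 to 0.158). The call of *Cacnb1* was lost with a pseudocount of 0.1 (0.144), the replicate block (0.0528) or edgeR (0.0557), or without library 1 or 2 of GFP+ Pdgfrα+ (0.0895 and 0.191), library 1 or 2 of GFP+ Pdgfrα- (0.0754 and 0.0739) or library 1 or 2 of GFP- Pdgfrα+ (0.153 and 0.261) (0.0347 to 0.261). The count of 8 became 0 without library 1 of GFP+ Pdgfrα+ or library 2 of GFP- Pdgfrα+, 3 without library 2 of GFP+ Pdgfrα+ and 1 without library 1 of GFP- Pdgfrα+. The count of 2 became 0 without any 1 library of GFP+ Pdgfrα+, GFP+ Pdgfrα- or GFP- Pdgfrα+ and 4 without library 1 or 2 of GFP- Pdgfrα-.

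The comparison of GFP+ Pdgfrα+ with GFP+ Pdgfrα- asks how Pdgfrα divided the GFP+ cells, and more members were called in it. Higher in GFP+ Pdgfrα+ were 19 members (23.5%), against 13.1% of all genes, and higher in GFP+ Pdgfrα- were 15 (18.5%), against 11.1%. The 19 include *Scn4b*, and the 15 include *Kcnf1*, *Kcnk13* and the model of *Kcnh8* on the minus strand. Each of these stood in the table only through the population where it was higher, so that its call is no support for a difference. Also among the 15 are *Kcna5* and the model of *Kcnh8* on the plus strand, both at the floor outside GFP+ Pdgfrα-. Their calls are not taken as support either. The 19 were 11 potassium, 6 calcium and 2 sodium channel genes. Of the 15, 12 were potassium channel genes, 1 was a calcium channel gene, *Cacng1*, and 2 were sodium channel genes. The largest differences towards GFP+ Pdgfrα+ were those of *Kcnk1*, *Kcnk6*, *Cacna1g*, *Kcnt2*, *Cacna1e* and *Kcnd1*, and towards GFP+ Pdgfrα- those of *Kcna1*, *Kcnk13*, *Kcnj10*, *Kcna2*, *Kcnn3* and *Kcna6*. These 12 were called in each alternative that was tried, *Kcnk13* as a gene selected through GFP+ Pdgfrα-. The count of 15 became 9 without library 1 of GFP+ Pdgfrα+, 8 without library 1 of GFP+ Pdgfrα- and 9 without library 2 of GFP+ Pdgfrα-. *Cacng1*, a gamma subunit of skeletal muscle, had 0 reads in GFP+ Pdgfrα+ and read 1.09 and 2.19 in GFP+ Pdgfrα- and 1.29 and 1.53 in GFP- Pdgfrα-. Its difference between GFP+ Pdgfrα+ and GFP+ Pdgfrα- (limma adjusted p = 0.0369) was not called without library 1 or 2 of GFP+ Pdgfrα+ (0.0887 and 0.0952), library 2 of GFP+ Pdgfrα- (0.192) or library 1 or 2 of GFP- Pdgfrα- (0.0525 and 0.0524). The range over the alternatives was 0.0214 to 0.192.

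Grouped by the tissue they are known from, the channel lists differed in where they were high, and a gene may stand in more than 1 list. The F test called 66% of all genes, against which the counts of each list stand. Of 15 skeletal muscle channel genes 10 were in the table and 6 were called by the F test. *Kcnn3* was among those called highest in GFP+ Pdgfrα-, *Cacnb1* was called highest in GFP- Pdgfrα+, and the list summed to 92.8 and 98.9 in GFP+ Pdgfrα+, 131 and 133 in GFP+ Pdgfrα-, 157 and 151 in GFP- Pdgfrα+ and 10.9 and 8.02 in GFP- Pdgfrα-, with *Cacna2d1* the most abundant. *Kcnj12* was at the floor in GFP- Pdgfrα+ and GFP- Pdgfrα-, and *Kcnj11* in GFP+ Pdgfrα+ and GFP- Pdgfrα-. Of 13 smooth muscle and mural channel genes 12 were in the table, 11 were called by the F test, and the list held no gene called highest in a population. They summed to 206 and 195 in GFP+ Pdgfrα+, 107 and 130.4 in GFP+ Pdgfrα-, 202 and 209.7 in GFP- Pdgfrα+ and 18.1 and 15.6 in GFP- Pdgfrα-, so that the Pdgfrα+ populations were above GFP+ Pdgfrα-, whereas the mural markers were highest in GFP+ Pdgfrα-. Of the 12, 4 were higher in GFP+ Pdgfrα+ than in GFP+ Pdgfrα-, 1 was lower, *Kcna5*, and 9 were called lowest in GFP- Pdgfrα-, against 13.1%, 11.1% and 22% of all genes. *Kcna5* was at the floor in every population but GFP+ Pdgfrα-. Its place in the table may have rested on that population, and its call is not taken as support for a difference. The difference in *Kcna5* (limma adjusted p = 0.0104) was lost with edgeR (0.0601), or without library 2 of GFP+ Pdgfrα+ (0.0529) or library 1 of GFP+ Pdgfrα- (0.0803). Across alternatives the adjusted p was 0.0113 to 0.0803. *Kcnma1* was the most abundant gene of the list.

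Of 7 glial channel genes 6 were in the table, all called by the F test, and *Kcna1*, *Kcna2*, *Kcna6* and *Kcnj10* were called highest in GFP+ Pdgfrα-, against 66% and 4.65% of all genes. They summed to 100.3 and 79.3 in GFP+ Pdgfrα+, 352 and 306 in GFP+ Pdgfrα-, 47.7 and 52.6 in GFP- Pdgfrα+ and 14.9 and 7.55 in GFP- Pdgfrα-, with *Kcna1* the most abundant, and *Kcnj10* and *Kcna5* were at the floor in GFP- Pdgfrα+. All 8 bone cell channel genes were in the table, 7 were called by the F test, and *Kcnn4* was called highest in GFP- Pdgfrα-. Of these 3 were higher in GFP+ Pdgfrα+ than in GFP+ Pdgfrα-, and 5 were called lowest in GFP- Pdgfrα-, against 13.1% and 22% of all genes. Their sum was 191 and 183 in GFP+ Pdgfrα+, 103 and 109 in GFP+ Pdgfrα-, 231 and 225 in GFP- Pdgfrα+ and 157 and 138 in GFP- Pdgfrα-, with *Cacna2d1* the most abundant, while the osteoblast markers were highest in GFP+ Pdgfrα+. *Kcnn4* made up most of the bone cell channel sum in GFP- Pdgfrα-, and without that gene the sum would be lowest there. Of 18 neuronal channel genes 11 were in the table under 12 identifiers, 10 of which were called by the F test and 1, *Scn3a*, highest in GFP+ Pdgfrα+. The list summed to 53.9 and 52.0 in GFP+ Pdgfrα+, 35.2 and 45.0 in GFP+ Pdgfrα-, 47.1 and 52.9 in GFP- Pdgfrα+ and 15.5 and 19.6 in GFP- Pdgfrα-, with *Scn3b* the most abundant and 9 identifiers at the floor in GFP- Pdgfrα-. Of 8 neuron markers 2 were in the table, *Tubb3*, called highest in GFP+ Pdgfrα+, and *Stmn2*, called highest in GFP- Pdgfrα+, and their sum was 4.70 and 2.01 in GFP+ Pdgfrα+, 0.971 and 0.515 in GFP+ Pdgfrα-, 5.80 and 5.94 in GFP- Pdgfrα+ and 0.287 and 0.707 in GFP- Pdgfrα-. Endothelial markers, against which CD31 was used, were not called highest in any population and summed to 48.6 and 72.7 in GFP+ Pdgfrα+, 45.9 and 93.4 in GFP+ Pdgfrα-, 49.4 and 51.4 in GFP- Pdgfrα+ and 31.6 and 121 in GFP- Pdgfrα-, with *Tek* the most abundant and *Emcn* and *Tie1* at the floor in GFP- Pdgfrα+.

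Many genes that work with muscle channels were highest in GFP+ Pdgfrα-, although the skeletal muscle channel list itself had its highest sum in GFP- Pdgfrα+. *Cacna2d1* carried that sum, with 119 and 108 of 157 and 151 in GFP- Pdgfrα+ and 58.2 and 56.0 of 131 and 133 in GFP+ Pdgfrα-. The median log2 difference of the list between GFP+ Pdgfrα- and GFP- Pdgfrα+ was 0.34, higher in GFP+ Pdgfrα-. Of 14 partners of excitation and contraction coupling 10 were called highest in GFP+ Pdgfrα-, against 4.65% of all genes. *Ryr1*, the calcium release channel of skeletal muscle, read 100.4 and 93.0 in GFP+ Pdgfrα- against 4.28 and 8.19 in GFP+ Pdgfrα+, 1.13 and 1.34 in GFP- Pdgfrα+ and 1.87 and 1.77 in GFP- Pdgfrα-. *Atp2a1*, which pumps calcium back, read 45.8 and 40.8 in GFP+ Pdgfrα- and 4.56 and 6.18 in GFP+ Pdgfrα+. The list summed to 379 and 336 in GFP+ Pdgfrα+, 503 and 509 in GFP+ Pdgfrα-, 338 and 329.7 in GFP- Pdgfrα+ and 143 and 182 in GFP- Pdgfrα-, with *Fkbp1a* the most abundant, and *Casq1*, *Sln*, *Trdn* and *Jsrp1* were at the floor in GFP+ Pdgfrα+ and GFP- Pdgfrα+. Muscle fibre markers were called highest in GFP+ Pdgfrα- for 4 of 8 genes and summed to 45.8 and 57.2 in GFP+ Pdgfrα+, 186 and 165 in GFP+ Pdgfrα-, 45.9 and 36.5 in GFP- Pdgfrα+ and 31.3 and 28.3 in GFP- Pdgfrα-, with *Myh8* the most abundant. Of 6 pacemaker and sulfonylurea receptor genes 4 were in the table, and *Abcc9*, which also stands among the mural markers, and *Abcc8* were called highest in GFP+ Pdgfrα-. *Abcc9* read 202 and 253 in GFP+ Pdgfrα- and 67.0 and 70.6 in GFP+ Pdgfrα+, and the list summed to 69.6 and 72.2 in GFP+ Pdgfrα+, 209 and 259 in GFP+ Pdgfrα-, 37.6 and 36.2 in GFP- Pdgfrα+ and 10.6 and 21.7 in GFP- Pdgfrα-.

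Other ion channels and pumps spread over the populations. Of all genes, 1.32% were called highest in GFP+ Pdgfrα+, 4.65% in GFP+ Pdgfrα-, 1.45% in GFP- Pdgfrα+ and 19.2% in GFP- Pdgfrα-. Of 12 chloride channel genes *Ano6* was called highest in GFP+ Pdgfrα+, *Clcn5* and *Clcn6* in GFP+ Pdgfrα-, and *Clcn3* and *Clcn2* in GFP- Pdgfrα-, and the list summed to 1047 and 916 in GFP+ Pdgfrα+, 946 and 1042 in GFP+ Pdgfrα-, 974 and 913 in GFP- Pdgfrα+ and 975 and 937 in GFP- Pdgfrα-. *Clcn3* read 357 and 324 in GFP- Pdgfrα- against 57.2 and 51.1 in GFP+ Pdgfrα-, where it was next highest. Of 16 TRP and Piezo channel genes 13 were in the table, *Pkd1* and *Pkd2* were highest in GFP- Pdgfrα+ and *Trpv2* in GFP- Pdgfrα-, with sums of 1104 and 1087 in GFP+ Pdgfrα+, 721 and 807 in GFP+ Pdgfrα-, 1633 and 1683 in GFP- Pdgfrα+ and 490.1 and 443 in GFP- Pdgfrα-. *Pkd1*, part of the complex that senses flow on cilia, read 706 and 780.1 in GFP- Pdgfrα+ and 398 and 435 in GFP+ Pdgfrα+. Of 17 pumps, exchangers and genes of store-operated calcium entry 16 were in the table. *Slc8a3*, a sodium and calcium exchanger, was highest in GFP+ Pdgfrα+, at 114 and 68.8 against 25.3 and 18.6 in GFP- Pdgfrα+. *Atp2a3* was among those highest in GFP+ Pdgfrα-, *Atp1b2* and *Atp2b4* were highest in GFP- Pdgfrα-, and the list summed to 1449 and 1366 in GFP+ Pdgfrα+, 1249 and 1397 in GFP+ Pdgfrα-, 1277 and 1226 in GFP- Pdgfrα+ and 1546 and 1641 in GFP- Pdgfrα-. *Clic4*, *Pkd1* and *Atp2a2* were the most abundant genes of these 3 lists.

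Members that the F test did not call were not shown to be equal between populations. Of these the most abundant were *Kcnj13*, *Kcnj2*, *Kcnh6* and *Kcnip4*. *Kcnj13* (chr1:89282938-89291304, minus strand, 3 exons), an inward rectifier of epithelia, read 4.28 and 5.32 in GFP+ Pdgfrα+, 4.01 and 3.99 in GFP+ Pdgfrα-, 2.40 and 4.31 in GFP- Pdgfrα+ and 7.90 and 5.78 in GFP- Pdgfrα- (limma adjusted p = 0.244 for the F test), and its exons overlap *Gigyf2* on the opposite strand. *Kcnj2*, the inward rectifier of muscle and heart, read 7.60 and 2.44 in GFP+ Pdgfrα+, 5.71 and 5.27 in GFP+ Pdgfrα-, 4.16 and 9.36 in GFP- Pdgfrα+ and 1.01 and 2.00 in GFP- Pdgfrα- (limma adjusted p = 0.0575). The libraries of GFP+ Pdgfrα+, GFP+ Pdgfrα- and GFP- Pdgfrα+ overlapped, and both of GFP- Pdgfrα- lay below them. *Kcnh6* read 2.07 and 3.59 in GFP+ Pdgfrα+, 2.55 and 3.73 in GFP+ Pdgfrα-, 1.39 and 2.52 in GFP- Pdgfrα+ and 5.03 and 6.25 in GFP- Pdgfrα- (limma adjusted p = 0.109), and *Kcnip4* read 2.07 and 7.62 in GFP+ Pdgfrα+, 3.52 and 0.90 in GFP+ Pdgfrα-, 2.65 and 2.52 in GFP- Pdgfrα+ and 1.01 and 1.06 in GFP- Pdgfrα- (limma adjusted p = 0.188). The F test did call *Kcnj13* with quantile normalization (0.0265) (range 0.0265 to 0.602), *Kcnh6* with quantile normalization (0.00875) (range 0.00875 to 0.372) and *Kcnip4* without library 1 of GFP+ Pdgfrα+ (0.0374) (range 0.0374 to 0.524). It called *Kcnj2* with the minimum mean value (0.0455), or without library 1 or 2 of GFP+ Pdgfrα+ (0.0282 and 0.0209) or library 1 of GFP- Pdgfrα+ (0.0438) (range 0.0209 to 0.392). Of the 81 members, 54 had a mean value of at least 2 over the 8 libraries, and 66 were over 2 CPM in at least 2 libraries. The remaining members rest on few reads, and differences between populations in them were not detectable at this depth unless they were called.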

How the data were processed

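The deposited table holds 1 signal value per gene and library for 15880 genes and 8 libraries, 2 for each of the 4 sorted populations. The authors trimmed reads with cutadapt, assigned them to genes of NCBIM37 with RSEM 1.17, and normalized the expected counts in limma after a filter stated as over 2 CPM in at least 2 samples, and Picard is also listed. Each signal value as deposited is a read count plus 0.5, scaled to the normalized library size. Whole reads were recovered from 100% of the values within a tolerance of 0.1, and gave libraries of 3221217 to 5302762 reads. From these reads 14235 of all genes and 66 of the 81 members exceeded 2 CPM in at least 2 libraries, whereas all 81 members had over 2 reads in at least 2 libraries. Symbols, coordinates and coding sequences came from the NCBIM37 annotation, which held 15849 of the gene identifiers. Values were analysed as log2(value + 1) in limma 3.58.1 under R 4.3.3, with 1 mean per population, 4 residual degrees of freedom, moderated t tests for the 6 pairs of populations and for the interaction of GFP with Pdgfrα, an F test over the 4 populations, and Benjamini-Hochberg adjustment over all genes at 0.05. The fit was tested on simulated data. The replicate number was read as a pool of littermates shared by the populations, and the deviations of the replicates were checked for correlation between populations, which ran from 0.0043 to 0.0812. The reported fit has no replicate block. Alternatives were a pseudocount of 0.1, a minimum mean value of 2, quantile normalization, a replicate block, voom and edgeR 4.0.16 on the recovered reads, and leaving out each library, and edgeR called 10084 of all genes over the 4 populations. Reads of libraries within a population varied more than counting alone would give, with a chi-square per degree of freedom of 9.12 in GFP+ Pdgfrα+, 4.98 in GFP+ Pdgfrα-, 4.12 in GFP- Pdgfrα+ and 8.36 in GFP- Pdgfrα-. The rules for counts and named genes were written before the deposited values were opened, but with earlier results of these data known, and the count of genes lowest in GFP- Pdgfrα- was added after. Named genes were up to 8 called highest in each population, up to 6 per direction with the largest differences between GFP+ Pdgfrα+ and GFP- Pdgfrα+ and between GFP+ Pdgfrα+ and GFP+ Pdgfrα-, the 6 with the highest levels per kilobase, and the 4 most abundant that the F test did not call, and a few genes that the rule names are left out of the text. Other members were chosen after their values were seen, for their roles. Marker lists covered muscle precursors, muscle fibres, mural cells, the Schwann lineage, the osteoblast lineage, tendon, cartilage, neurons, endothelium, blood and erythroid cells. Channel lists covered skeletal muscle, smooth muscle and mural cells, glia, bone cells and neurons. Partner lists covered excitation-contraction coupling, chloride channels, TRP and Piezo channels, pumps and exchangers, and pacemaker and sulfonylurea receptor genes. The members and the lists were chosen with earlier results of these data known. Figures and sequence searches used Python 3.11.15, numpy 2.4.6, pandas 2.3.3 and matplotlib 3.10.9.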

Additional observations from a re-analysis of the deposited data

Results flagged for a closer look

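The effect of GFP was compared between Pdgfrα+ and Pdgfrα- cells (the interaction) for the 8 genes named for GFP+ Pdgfrα+ against GFP- Pdgfrα+, and for 3 of them limma called a difference, which is why they are given here. The interactions of *Kcnh2* and *Kcnk1*, not called in the reported fit, were each called in at least 1 alternative. Over all 81 members the interaction was called for 34 (42%), against 44.3% of all genes, and the others of the 34 were not examined singly. For *Kcnj10* the log2 difference between GFP+ and GFP- was 2.07 in Pdgfrα+ and 3.86 in Pdgfrα- cells, an interaction of -1.79 (limma adjusted p = 0.0318). Its adjusted p ran from 0.00643 to 0.495 over the alternatives, and the interaction was not called in 11 of them, which were those with a pseudocount of 0.1 (0.193), quantile normalization (0.111), voom (0.278) or edgeR (0.495), or without library 1 or 2 of GFP+ Pdgfrα+ (0.069 and 0.0615), library 1 or 2 of GFP+ Pdgfrα- (0.0977 and 0.0781), library 1 or 2 of GFP- Pdgfrα+ (0.0647 and 0.079) or library 2 of GFP- Pdgfrα- (0.122). For *Cacna2d2* the effects were -1.66 and 1.39, an interaction of -3.05 (limma adjusted p = 0.00074, 0.000628 to 0.00489 over the alternatives). For *Cacnb1* they were -1.62 and 1.77, an interaction of -3.39 (limma adjusted p = 0.000632, 0.000375 to 0.00616 over the alternatives). Both calcium channel interactions were called in every alternative tried, *Cacna2d2* and *Cacnb1* having their highest mean in GFP- Pdgfrα+ and their lowest in GFP- Pdgfrα-. The cause of these differences was not tested.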

How the results depend on the processing

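Of 44 results for named genes, 612 values under alternatives were computed, of which 486 kept direction and side of the threshold, 114 lost a call, 6 gained one and 6 changed sign. The calls of *Kcna1*, *Kcna2*, *Kcnj10*, *Kcnk13* and *Kcnn3* as highest in GFP+ Pdgfrα-, and of *Kcnn4* and *Kcnab2* in GFP- Pdgfrα-, held in each alternative, as did those of the 12 genes named for GFP+ Pdgfrα+ against GFP+ Pdgfrα-. Among these, *Kcnk13* stood in the table through GFP+ Pdgfrα- alone, so that its calls are no support for a difference. Among counts, the 63 members called by the F test and the 19 higher in GFP+ Pdgfrα+ than in GFP+ Pdgfrα- stayed within 1.5 times under every alternative. With a pseudocount of 0.1, members highest in GFP+ Pdgfrα+ went from 4 to 2, highest in GFP- Pdgfrα+ from 2 to 0, higher in GFP+ Pdgfrα+ than in GFP- Pdgfrα+ from 8 to 4, and lower from 2 to 0. With edgeR on the recovered reads the same counts were 2, 1, 5 and 1, the 1 called highest in GFP- Pdgfrα+ and the 1 lower in GFP+ Pdgfrα+ being *Cacna1g*, while highest in GFP+ Pdgfrα- went from 10 to 6 and those higher in GFP+ Pdgfrα- than in GFP+ Pdgfrα+ from 15 to 9. With the replicate block, highest in GFP- Pdgfrα+ and higher in GFP- Pdgfrα+ than in GFP+ Pdgfrα+ were 1 each. A minimum mean value of 2 took the 15 to 8. Quantile normalization took highest in GFP- Pdgfrα- from 2 to 6 and lowest in GFP- Pdgfrα-, a count added after the data were seen, from 26 to 15. Leaving out 1 library at a time gave ranges of 54 to 63 for the F test, 0 to 4 for highest in GFP+ Pdgfrα+, 5 to 10 in GFP+ Pdgfrα-, 0 to 4 in GFP- Pdgfrα+ and 2 to 2 in GFP- Pdgfrα-. For GFP+ Pdgfrα+ against GFP- Pdgfrα+ the ranges were 0 to 8 higher and 0 to 4 lower, for GFP+ Pdgfrα+ against GFP+ Pdgfrα- 14 to 20 higher and 8 to 13 lower, and for lowest in GFP- Pdgfrα- 22 to 26. In these fits the lone library was assumed to vary like the others. The interaction of GFP with Pdgfrα, not called for *Kcnh2* (-0.38) or *Scn3a* (0.09) in the reported fit, changed sign for *Kcnh2* under quantile normalization (0.0156) and for *Scn3a* with the pseudocount of 0.1 (-1.50), voom (-2.14) and edgeR (-3.96). Without single libraries, that of *Scn3a* ran from -0.45 to 0.63. Apart from the fewer genes under the minimum mean value and the fewer samples without a library, the cause was not tested. With 3221217 to 5302762 reads per library, a gene at the floor may still be present at low levels, and 54 of the 81 members reached a mean value of 2.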
